A study of Mus musculus with 16 samples.

Results

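The collagen gene family was followed in dorsal skin of 15-day mice as the probes whose current gene symbol reads Col, a number, a and a number, such as Col1a1. The array held 37 such genes on 59 of its 25697 probes, out of 16593 genes in all, and 26 of the 37 passed the detection filter and were tested among 10232 genes. There were 16 arrays, 4 in each of 4 groups, and all mice had a background labelled as C57/BL6 mixed with 129Ola. Control mice were compared with Shp2lof mice, in which the Krox20-cre driver met a floxed gene for Shp2 (a tyrosine phosphatase of the Ras and ERK pathway), with Mek1gof mice, in which the same driver met the gain-of-function allele Mek1 fstop/+ (a kinase that phosphorylates ERK), and with Double mice, which had both. Krox20 (Egr2) is known as a transcription factor of myelinating Schwann cells. The labels do not say in which skin cells the driver was active, whether control mice carried it, or whether replicates were different animals, so the p-values reflect no more than the spread among these arrays.

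Collagens are triple helices of 3 polypeptide chains, each chain encoded by its own gene. Fibrillar collagens form the banded fibres that give the dermis its strength. In skin most of the fibre is type I collagen, built from the products of Col1a1 and Col1a2, with type III (Col3a1) beside it and type V (Col5a1, Col5a2) at its core. Type IV collagens form the network of basement membranes, type VII anchors the epidermal basement membrane to the dermis, type XVII is a transmembrane protein of the hemidesmosomes of basal keratinocytes, and type VI forms beaded filaments. Fibroblasts of the dermis are the main source of the fibrillar chains.

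Of the 37 collagen genes, 11 were fibrillar (8 tested), 6 belonged to basement membranes (5 tested) and 20 to other classes (13 tested). A probe was called detected where its p against the negative control beads was below 0.05, and a gene was tested where a probe was detected on at least 4 arrays. By that measure 24 of the 59 collagen probes were detected on all 16 arrays and 15 on none, and single arrays detected between 28 and 35 of them. The 11 genes not tested were Col10a1, Col13a1, Col19a1, Col4a3, Col6a6 and Col9a3, whose probes were detected on 0 arrays, Col11a1 and Col9a1 on 1 array, and Col11a2, Col27a1 and Col9a2 on 2 arrays. Several of these, such as Col2a1's cartilage partners Col9a1, Col9a2, Col11a1 and Col11a2 and the hypertrophic cartilage collagen Col10a1, are known from cartilage. A further 7 collagen symbols of the gene table, Col12a1, Col20a1, Col22a1, Col6a3, Col6a4, Col6a5 and Col8a1, were on no probe analysed here. Of the tested genes, 19 were detected on every array. Col2a1, the fibrillar collagen of cartilage, passed through 1 control and 3 Mek1gof arrays and was detected on 0 Shp2lof and 0 Double arrays. Col8a2 was detected on 0 control arrays, 1 Shp2lof, 2 Mek1gof and 1 Double array.

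Promoter windows of 4 members are shown: Col1a2, one of the 2 genes called below, Col3a1, its companion in the dermal fibre, which was not called, and the type IV pair Col4a1 and Col4a2, whose starts lie side by side. Col1a1 is not shown. They are RefSeq sequences of the mouse build GRCm38.p6, from 250 bases before to 50 after the annotated start, in the gene's own direction. Capitals mark, on either strand, CCAAT (the CCAAT box) or TATAAA (the TATA box) or GGGCGG (the GC box). Col1a2 lies at chr6:4505368-4505667 on the plus strand, Col3a1 at chr1:45311288-45311587 on the plus strand, Col4a1 at chr8:11312777-11313076 on the minus strand and Col4a2 at chr8:11312555-11312854 on the plus strand.
Col1a2: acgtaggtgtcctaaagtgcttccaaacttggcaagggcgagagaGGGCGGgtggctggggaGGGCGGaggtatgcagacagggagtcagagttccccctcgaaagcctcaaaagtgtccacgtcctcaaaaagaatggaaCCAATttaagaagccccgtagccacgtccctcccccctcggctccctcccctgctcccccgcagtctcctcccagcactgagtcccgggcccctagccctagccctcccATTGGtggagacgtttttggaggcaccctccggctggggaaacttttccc
Col3a1: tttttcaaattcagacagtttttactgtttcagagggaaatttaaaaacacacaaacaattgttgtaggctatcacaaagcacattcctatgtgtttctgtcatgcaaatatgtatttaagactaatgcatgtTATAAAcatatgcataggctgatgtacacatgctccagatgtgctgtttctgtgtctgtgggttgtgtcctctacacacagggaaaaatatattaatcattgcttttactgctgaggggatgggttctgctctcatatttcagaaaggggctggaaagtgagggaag
Col4a1: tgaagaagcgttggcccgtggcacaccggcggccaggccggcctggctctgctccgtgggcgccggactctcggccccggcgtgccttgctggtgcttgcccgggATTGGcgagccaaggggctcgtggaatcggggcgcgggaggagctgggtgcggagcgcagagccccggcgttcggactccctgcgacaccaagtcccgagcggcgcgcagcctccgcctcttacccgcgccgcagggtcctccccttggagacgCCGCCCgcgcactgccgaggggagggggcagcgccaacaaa
Col4a2: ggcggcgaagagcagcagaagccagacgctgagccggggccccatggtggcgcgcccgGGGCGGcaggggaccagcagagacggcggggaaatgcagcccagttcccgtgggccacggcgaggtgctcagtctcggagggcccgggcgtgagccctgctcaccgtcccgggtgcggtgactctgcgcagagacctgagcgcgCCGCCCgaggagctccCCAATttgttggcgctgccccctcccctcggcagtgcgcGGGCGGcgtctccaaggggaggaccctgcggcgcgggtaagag
The Col1a2 window had a CCAAT 109 bases before the start, another on the opposite strand at the start itself, and GGGCGG 205 and 188 bases before it. The Col3a1 window held neither of these and had a TATAAA 117 bases before the start. Col4a1 and Col4a2 form a head-to-head pair on opposite strands whose annotated starts lie 21 bases apart, and the windows share 78 bases. The annotated genes overlap at their starts, so each start lies inside the other gene. The GC box marked after the Col4a1 start and the one after the Col4a2 start are the same site. Among 23 windows of 21 tested collagens, 43.5% held CCAAT, 8.7% TATAAA and 65.2% GGGCGG, against 37.4%, 13.6% and 35.7% of all 32851 windows. The collagens here had passed the detection filter, while the full set of windows was not filtered, so the sets are unlike. The matches describe the letters only, and whether any protein binds at them was not measured. The gene table also places Col3a1 next to Col5a2 on chromosome 1, Col6a2 next to Col6a1 on chromosome 10 and Col4a6 next to Col4a5 on chromosome X.

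In Shp2lof skin both chains of type I collagen fell and no other collagen passed the test. Levels are given as background-corrected, quantile-normalized log2 signals, in which each unit is a factor of 2, and a level of one probe says nothing against that of another. Col1a1, the alpha 1 chain, read 12.92, 13.03, 12.72 and 12.65 on the control arrays 1 to 4 and 11.58, 11.40, 11.66 and 12.13 on the Shp2lof arrays. Every Shp2lof array lay below every control array. The difference was -1.14 ± 0.19 (SE, n = 4 arrays in each group), or 2.2-fold lower, with a limma adjusted p of 0.0024. Col1a2, the alpha 2 chain, gave 11.49, 11.69, 11.62 and 12.51 on control arrays and 10.66, 10.64, 11.18 and 10.53 on Shp2lof arrays. Again the groups did not overlap, and control 4 stood highest. Its difference was -1.07 ± 0.25, or 2.11-fold lower, with a limma adjusted p of 0.0286. All genes considered, 2.55% were called in this comparison and 1.05% called lower, against 2 of 26 collagens, both lower. In 5 of the 26 the arrays of the 2 groups did not overlap, against 11.5% of all genes. In whole skin, fewer cells of a type and less RNA per cell cannot be told apart.

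The 2 type I calls held to different degrees under other settings. The Col1a1 difference was -1.48 on slide 1 and -0.79 on slide 2, and it passed in 16 of 17 other settings and with each of the 16 arrays left out, the exception being slide 2 alone (adjusted p = 0.0741). Leaving out a Mek1gof or Double array could not move a difference between Shp2lof and control, only the shared spread and so the p-values. The Col1a2 difference was -0.94 on slide 1 and -1.21 on slide 2. It passed in 12 of 17 settings, and was lost when any of control 2, control 3, control 4, Shp2lof 1, Shp2lof 2 or Shp2lof 4 was left out, with adjusted p = 0.0954 at most and a difference of -0.85 without control 4.

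**Figure D1:**
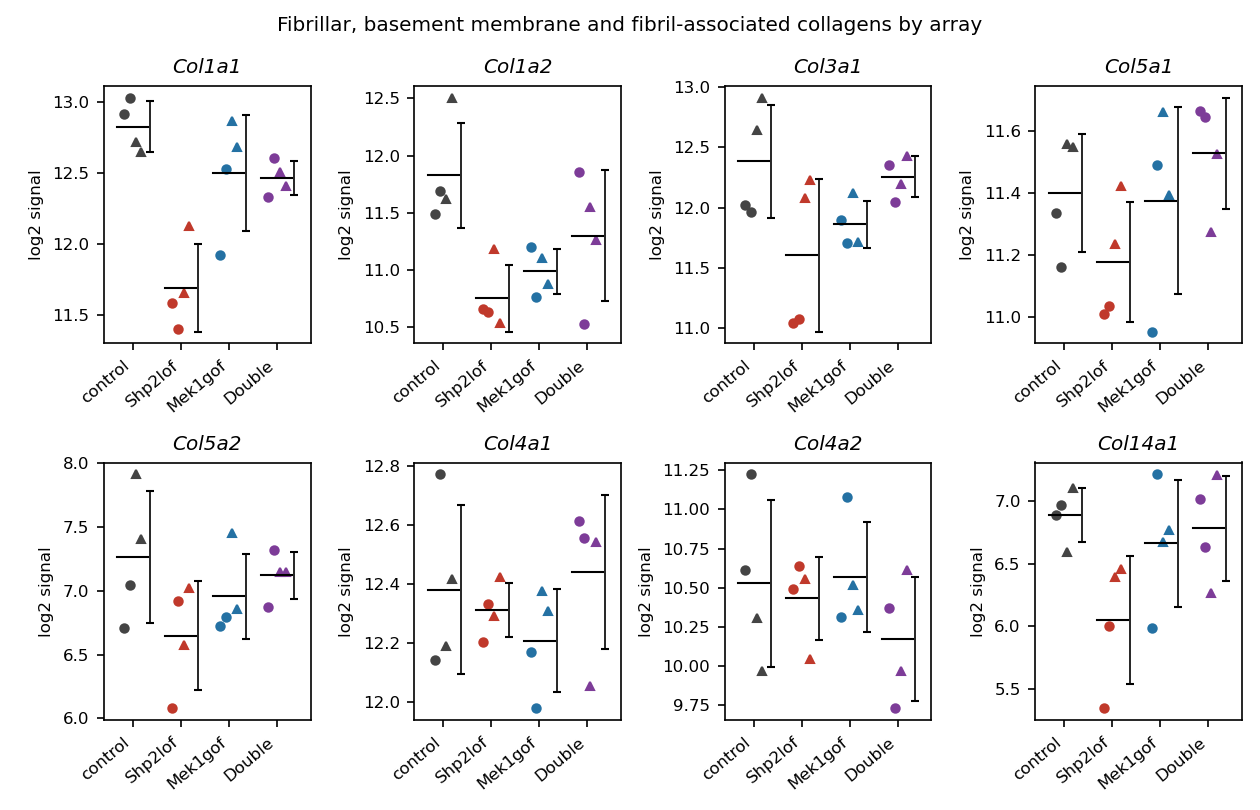
Log2 signal (vertical axes, one scale per gene) of 8 collagens on each array by group. Circles are arrays on slide 1 and triangles on slide 2, the horizontal line is the group mean and the bar beside it the SD. For Col1a1 and Col1a2 the 4 Shp2lof arrays lie below the 4 control arrays, while for Col4a1 and Col4a2 the groups overlap.

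None of the other 6 tested fibrillar collagens passed in Shp2lof skin, and their estimates ran from -0.78 to 0.01. Col3a1, whose homotrimer accompanies type I in the dermis, gave 12.02, 11.96, 12.64 and 12.91 on control arrays and 11.05, 11.08, 12.08 and 12.23 on Shp2lof arrays. Within each slide the Shp2lof arrays lay below the control arrays, but arrays on slide 2 were higher in both groups, so the groups overlapped. The difference was -0.78 ± 0.26 with a limma adjusted p of 0.135, and it passed with slide as a block (0.0343). A second, dimmer Col3a1 probe gave -0.88. For Col5a2, a type V chain that neighbours Col3a1 in the genome, the difference was -0.62 ± 0.24 (adjusted p = 0.217), and for Col5a1, the other type V chain, -0.22 (adjusted p = 0.535). Values for Col24a1, Col5a3 and Col2a1 were -0.29, -0.01 and 0.01. In all, 7 of the 8 tested fibrillar members had estimates below 0, with a median of -0.46. The median was -0.07 for the 5 basement membrane members, 0.02 for the 13 others and 0.02 over all genes tested. Below an unadjusted p of 0.05 lay 6 of the 26 collagens, against 15.7% of all genes.

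**Figure D2:**
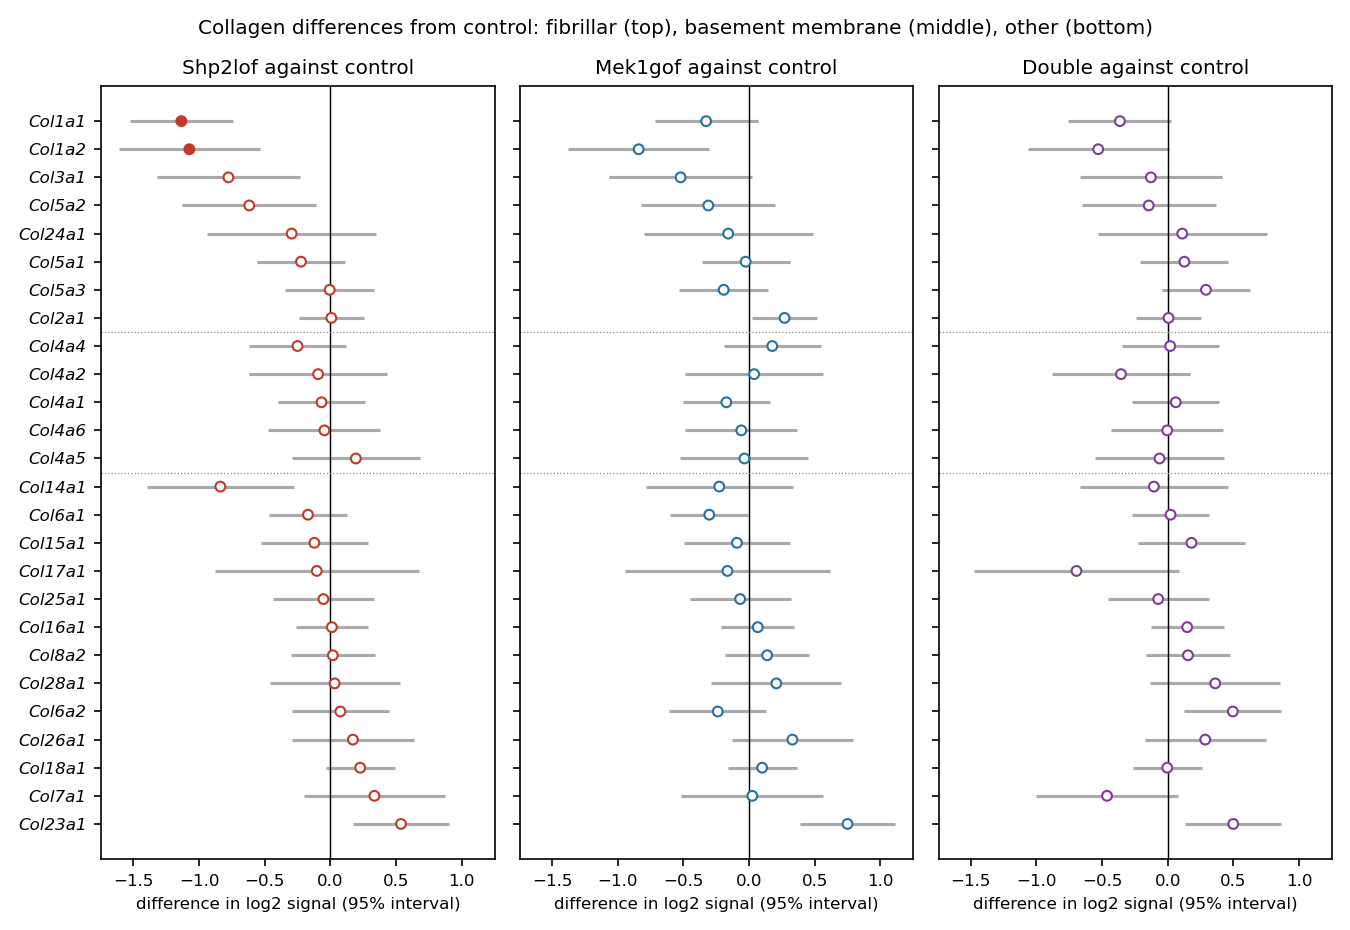
Difference from control in log2 signal (horizontal axis) for the 26 tested collagens, one panel per mutant group. Bars are 95% intervals, filled points passed the adjusted threshold, and dotted lines part fibrillar (top), basement membrane (middle) and other members. Col1a1 and Col1a2 in Shp2lof skin are the only filled points.

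Markers of dermal cells were read beside these values. Of 11 fibroblast markers, all measured and detected on every array, Vim (vimentin) fell in Shp2lof skin, by 0.78 on the log2 scale (adjusted p = 0.0417), and 10 did not pass. Over all genes 2.55% were called in this comparison and 1.05% called lower. Of the 11 estimates 8 were below 0 and 3 above, with a median of -0.20. Mfap5, a microfibril protein, gave -0.86 (adjusted p = 0.0827), and Pdgfra, Thy1 and Twist2 gave -0.33, 0.24 and 0.22. Their mean level ran from 9.18 to 9.52 on control and from 8.89 to 9.35 on Shp2lof arrays, an overlap. The mean of 4 measured Schwann cell markers (Mbp, Pmp22, Cnp, Mal; of 8 listed) ran from 8.09 to 8.72 in control and from 7.68 to 7.96 in Shp2lof skin with no overlap, though none of the 4 passed (Mbp -1.07, adjusted p = 0.0593). The mean of 7 adipocyte markers ran from 8.23 to 8.61 in control and from 7.73 to 8.51 in Shp2lof skin. All 7 adipocyte estimates were below 0, with a median of -0.46, and none passed. All 10 measured skeletal muscle estimates were also below 0 (median -0.25, none past the test). For keratinocyte markers 8 of 10 estimates were above 0 (median 0.15). Of 5 measured smooth muscle and pericyte markers 1 rose, where 154 of all 10232 genes did. The part of these shifts in the collagen result was not tested. Xist, the transcript of the inactive X, gave 4.84, 9.49, 4.74 and 9.48 on control arrays and 5.31, 5.09, 6.12 and 9.12 on Shp2lof arrays, so the groups differed in it. With the Xist level as a covariate the Col1a1 difference was -1.14 (adjusted p = 0.003) and that of Col1a2 -1.07 (0.0349). Shp2lof 4 and Mek1gof 2 were high in both Xist and the Y-linked Eif2s3y (9.12 and 8.01, and 8.82 and 6.77). Without these 2 arrays the Col1a1 difference was -1.28 (adjusted p = 0.00208) and Col1a2 no longer passed (0.102).

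**Figure D3:**
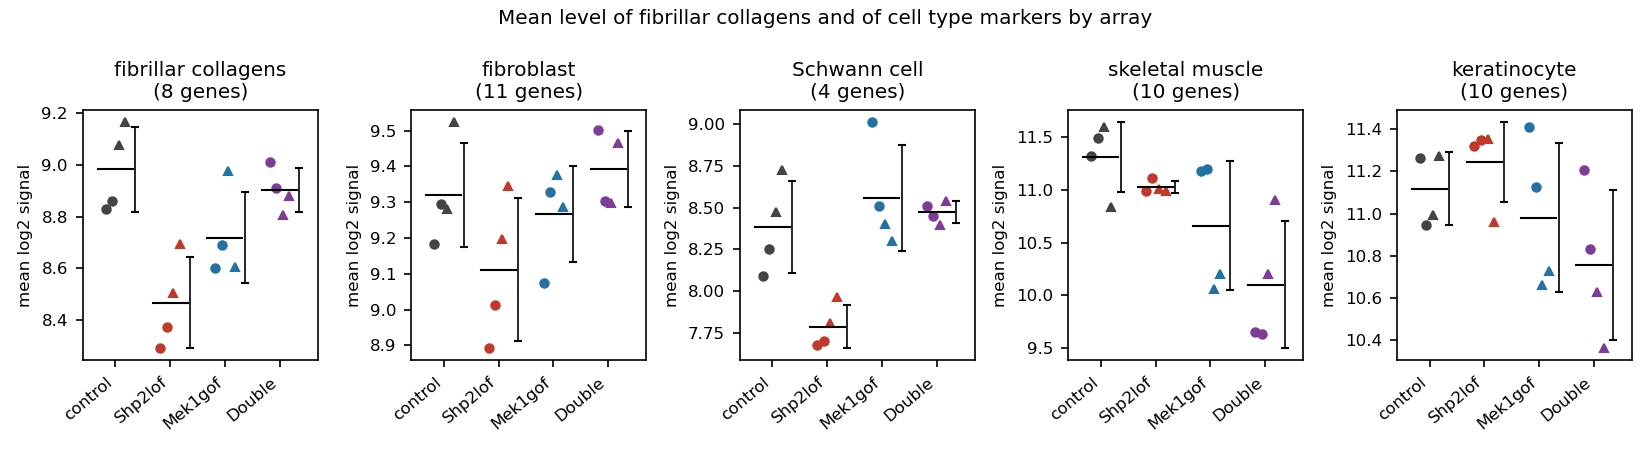
Mean log2 signal (vertical axes) of the 8 tested fibrillar collagens and of 4 marker lists on each array by group. Circles are slide 1, triangles slide 2, lines group means and bars SD. The fibrillar mean runs from 8.29 to 8.70 in Shp2lof and from 8.83 to 9.17 in control skin.

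In Mek1gof skin no collagen passed the test of limma, where 0.508% of all genes did. Below an unadjusted p of 0.05 lay 4 of 26 collagens, against 9.54% of all genes, and in 3 of 26 the groups did not overlap, against 6.05%. One of the 4 was Col2a1 (0.27), which entered the test through 3 Mek1gof arrays and 1 control array and so had to lean that way. Col1a1 read 11.93, 12.53, 12.86 and 12.69, a range that took in control values, with a difference of -0.33 ± 0.19 (adjusted p = 0.62). Col1a2 read 11.20, 10.77, 11.10 and 10.88, all below the control arrays. Its difference was -0.84 ± 0.25, with an adjusted p of 0.195. Whether the 2 chains of type I differed from each other in their response was not tested. Col3a1 read 11.90, 11.71, 12.12 and 11.71, and its difference was -0.52 (adjusted p = 0.547). The fibrillar median was -0.25.

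The member nearest to a call in Mek1gof skin was Col23a1, a transmembrane collagen. It gave 5.62, 5.06, 5.56 and 5.47 on control arrays, 5.95, 6.10, 5.76 and 6.06 on Shp2lof arrays, 6.46, 6.33, 6.02 and 5.90 on Mek1gof arrays and 6.28, 6.09, 5.65 and 5.68 on Double arrays. The control arrays were below all arrays of each mutant group. Against the shared controls the differences were 0.54 in Shp2lof (adjusted p = 0.121), 0.75 ± 0.17 in Mek1gof (0.0585) and 0.50 in Double skin (0.112). The Mek1gof difference was 1.05 on slide 1 and 0.45 on slide 2, and passed with slide as a block (0.0337). This is a dim probe, and the Mek1gof difference was 0.41 without background correction and 0.30 without either correction or normalization.

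In Double skin, too, no collagen passed against control by limma, where 3.88% of all genes did, and 2 of 26 collagens were below an unadjusted p of 0.05 against 20.8% of all genes. In 3 of 26 the groups did not overlap, against 12.5%. Col1a1 read 12.33, 12.61, 12.51 and 12.41, all below the control arrays by a small margin, with a difference of -0.36 ± 0.19 (adjusted p = 0.275). Col1a2 read 11.86, 10.52, 11.55 and 11.26. That range took in every Shp2lof array and 3 of the 4 control arrays, and the difference was -0.53 ± 0.25 (adjusted p = 0.245). Col3a1 read 12.35, 12.05, 12.20 and 12.43, within the control range, with a difference of -0.13 on this probe. On the dimmer Col3a1 probe the difference was -0.88, so the probes gave values of different size. The fibrillar median in Double skin was -0.06.

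Set directly against Shp2lof, Double skin had higher estimates for 7 of the 8 fibrillar members, and none passed. Over all classes, 7 of 26 collagens were below an unadjusted p of 0.05, against 12.8% of all genes. For Col1a1 every Double array (12.33 to 12.61) was above every Shp2lof array (11.40 to 12.13). The groups did not overlap for 1 of 26 collagens, against 6.54% of all genes. The Col1a1 difference was 0.77 ± 0.19, with a limma adjusted p of 0.0543, where 0.968% of all genes were called. It was 0.98 on slide 1 and 0.57 on slide 2, and passed in 5 of 17 other settings. Fitted beside the level of muscle markers, it was 0.56 (adjusted p = 0.534). Col14a1, a fibril-associated collagen that decorates the surface of type I fibrils, gave 6.89, 6.97, 6.59 and 7.10 on control arrays, 5.35, 6.003, 6.39 and 6.45 on Shp2lof arrays and 7.02, 6.64, 6.27 and 7.21 on Double arrays. The 4 Shp2lof arrays lay below the control arrays. Its difference was -0.84 ± 0.27 in Shp2lof against control (adjusted p = 0.116) and 0.73 in Double against Shp2lof (0.227). Col3a1 gave 0.65 (adjusted p = 0.281) on the probe that stands for the gene and -0.004 on its dimmer probe, so its estimate rests on the probe chosen. Col1a2 gave 0.54 (0.383), and the fibrillar median was 0.44. Col7a1, the collagen of anchoring fibrils, had a lower estimate, -0.80 ± 0.26 (limma adjusted p = 0.158), at -0.34 on slide 1 and -1.25 on slide 2. With slide as a block both Col1a1 (adjusted p = 0.0414) and Col7a1 (0.0488) passed. The mean of the Schwann cell markers was 8.40 to 8.54 on Double arrays, above all Shp2lof arrays, but 0 of the 4 passed (Mbp 1.15, adjusted p = 0.0663). The part of that in the collagen values was not tested.

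For the factorial interaction (Double minus Mek1gof, less Shp2lof minus control), 0 collagens passed, with 0.088% of all genes called by limma. Its estimates were 1.10 ± 0.26 for Col1a1 (adjusted p = 0.173), 1.39 ± 0.36 for Col1a2 (0.234) and 1.17 ± 0.36 for Col3a1 (0.443), and the fibrillar median was 0.67. The dimmer Col3a1 probe gave 0.45. Below an unadjusted p of 0.05 lay 10 of 26 collagens, against 7.17% of all genes. Since this contrast shares its arrays with those above, it adds no separate samples. The effect of Shp2 loss on the fibrillar genes is therefore not shown to differ between the 2 Mek1 backgrounds at the threshold used.

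Against Mek1gof, Double skin had no collagen past the limma threshold, where 0.283% of all genes were called, and 4 of 26 collagens were below an unadjusted p of 0.05 against 9.85% of all genes. The groups did not overlap for 1 of 26, against 4.56% of all genes. The smallest p was that of Col6a2, one of the chains of the beaded type VI filaments. It gave 9.63, 10.07, 9.78 and 9.74 on control arrays, 9.67, 9.80, 9.71 and 10.35 on Shp2lof arrays, 9.11, 9.61, 9.81 and 9.74 on Mek1gof arrays and 10.28, 10.33, 10.10 and 10.49 on Double arrays. All Double arrays were above all control and all Mek1gof arrays. The difference was 0.73 ± 0.18 against Mek1gof (adjusted p = 0.133) and 0.50 ± 0.18 against control (0.118). Col6a1, its neighbour on chromosome 10 and partner in the same filament, gave 12.36, 12.37, 12.49 and 12.43 on control arrays, 12.03, 12.15, 12.11 and 12.68 on Shp2lof arrays, 11.93, 12.30, 12.14 and 12.06 on Mek1gof arrays and 12.47, 12.42, 12.27 and 12.58 on Double arrays. The Mek1gof arrays were below the control arrays, with a difference of -0.30 ± 0.14 (adjusted p = 0.504). Its 3 probes disagreed in Shp2lof skin, at -0.17, 0.34 and -0.03, so the direction there rests on the probe chosen. The probe at -0.03 was detected on only 9 arrays and lay close to background.

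The type IV collagens of basement membranes had differences from control between -0.36 and 0.19, and none passed. Col4a1 gave 12.14, 12.77, 12.19 and 12.42 on control arrays, 12.20, 12.33, 12.29 and 12.43 on Shp2lof arrays, 12.17, 11.98, 12.38 and 12.31 on Mek1gof arrays and 12.61, 12.56, 12.05 and 12.54 on Double arrays. Its differences from control were -0.07 (95% interval -0.40 to 0.26), -0.17 (-0.50 to 0.16) and 0.06 (-0.27 to 0.39). Col4a2, whose start lies beside that of Col4a1 as the windows above show, gave 10.61, 11.22, 10.31 and 9.97 on control arrays, 10.49, 10.64, 10.56 and 10.05 on Shp2lof arrays, 10.32, 11.08, 10.52 and 10.36 on Mek1gof arrays and 10.37, 9.73, 9.97 and 10.61 on Double arrays. Its differences were -0.09, 0.04 and -0.36, and the control arrays alone spread over more than any of these. Col4a4, Col4a5 and Col4a6, chains of more specialised basement membranes, had differences between -0.25 and 0.19 from control, and 0 of the 5 members passed in any of the 6 comparisons. In Shp2lof skin the 95% intervals reached down to -0.40 for Col4a1, but to -0.62 for Col4a2 and -0.62 for Col4a4. They are not adjusted over all genes, so they do not give the size of change that the adjusted test could miss.

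**Figure D4:**
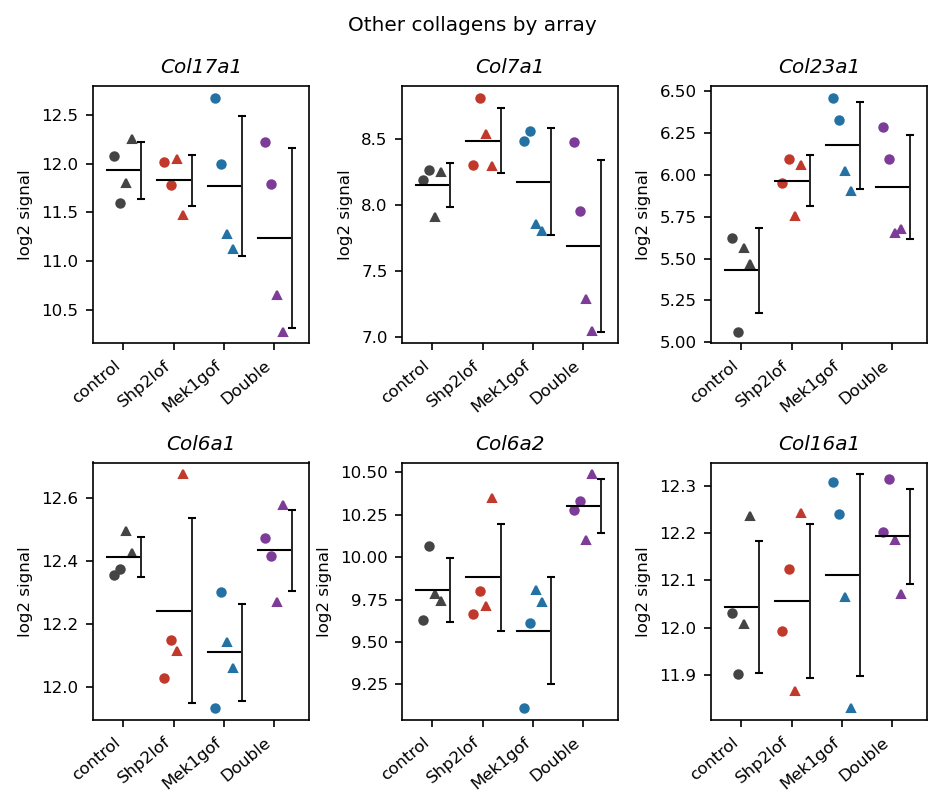
Log2 signal (vertical axes, one scale per gene) of 6 collagens of other classes on each array by group. Circles are slide 1, triangles slide 2, lines group means and bars SD. For Col17a1 and Col7a1 the 2 Double arrays on slide 2 lie below all others.

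The 2 collagens of the junction between epidermis and dermis varied by slide. Col17a1, the hemidesmosome collagen, gave 12.08, 11.59, 11.80 and 12.25 on control arrays and 12.23, 11.79, 10.65 and 10.28 on Double arrays. Its difference in Double skin was 0.17 on slide 1 and -1.56 on slide 2, and -0.70 ± 0.37 over both (adjusted p = 0.296). Slide 2 alone gave an adjusted p of 0.00417. All 3 probes of the gene gave like values in Double skin, from -0.81 to -0.68. Col7a1, the collagen of anchoring fibrils, gave 8.19, 8.27, 7.91 and 8.25 on control arrays and 8.48, 7.95, 7.29 and 7.04 on Double arrays, a difference of -0.01 on slide 1 and -0.91 on slide 2 (-0.46 over both, adjusted p = 0.319, and 0.0177 on slide 2 alone). The mean of the 10 keratinocyte markers, all detected on every array, was 11.21, 10.83, 10.63 and 10.36 on the same Double arrays, against 10.95 to 11.27 in control, with 9 of 10 estimates below 0 and none past the test. Its part in the values of Col17a1 and Col7a1 was not tested. Mek1gof arrays on slide 2 were also the lower ones for Col17a1 (11.27 and 11.12, with 12.68 the highest on slide 1). In Shp2lof skin Col7a1 read 8.30, 8.82, 8.54 and 8.30, all above the control arrays, with a difference of 0.34 ± 0.26 (adjusted p = 0.569).

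Among the remaining members Col16a1, a fibril-associated collagen, read 12.03, 11.90, 12.01 and 12.24 in control, with differences of 0.01, 0.07 and 0.15 in Shp2lof, Mek1gof and Double skin. Col15a1 and Col18a1, the multiplexins of vessel and epithelial basement membrane zones, had differences from -0.12 to 0.23. Col25a1, Col26a1, Col28a1 and Col8a2 had low signals, with group means between 4.71 and 5.75, and none passed. The spread within groups was largest for Col17a1 (pooled SD 0.62) and smallest for Col2a1 (0.12), a probe close to background. Within the groups the fibrillar chains did not follow one order: the array lowest in Col1a1 was lowest in Col1a2 in 0 of 4 groups and in Col5a3 in 3 of 4.

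**Figure D5:**
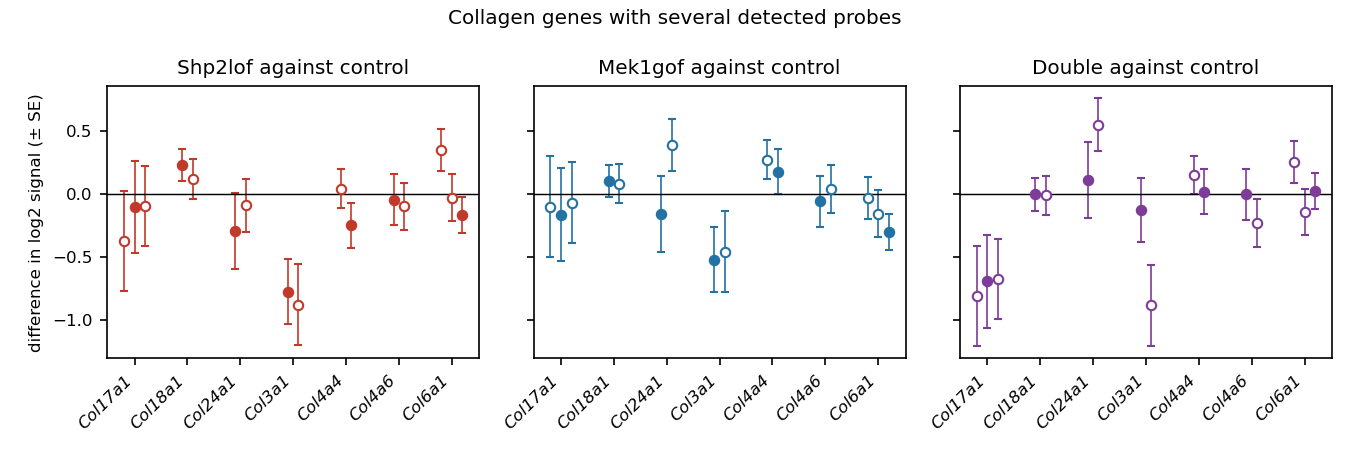
Difference from control in log2 signal (vertical axis, bars ± SE) for each detected probe of the 7 collagens with several such probes, one panel per mutant group. Filled points are the probes that stand for the gene. The probes of Col17a1 lie together, while those of Col3a1 in Double skin (-0.13 and -0.88) and of Col6a1 in Shp2lof skin (-0.17, 0.34 and -0.03) part. Signs also differ for Col24a1 in Mek1gof skin (-0.16 and 0.39) and for Col4a4 in Shp2lof skin (-0.25 and 0.04). The same holds for Col6a1 in Double skin (0.02, 0.25 and -0.15) and for Col4a6 in Mek1gof skin (-0.06 and 0.04). The Col24a1 probe at 0.39 was detected on 9 arrays.

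Genes that make, trim and bind collagen were followed from 4 lists. Of 21 genes for synthesis enzymes and chaperones, 17 were measured. In Shp2lof skin 1 fell, Plod2, the lysyl hydroxylase of telopeptides. It gave 6.90, 6.80, 6.55 and 6.60 on control arrays and 5.96, 6.19, 6.41 and 6.18 on Shp2lof arrays, without overlap, a difference of -0.53 ± 0.14 (adjusted p = 0.0489, and 0.0582 when adjusted over all probes). In Mek1gof skin 0 of 17 passed, and in Double skin 1 did. The shares called over all genes were 2.55%, 0.508% and 3.88% in the Shp2lof, Mek1gof and Double comparisons, so these counts are near the background. The gene called in Double skin was Serpinh1, the collagen chaperone Hsp47, at 8.16, 8.35, 8.47 and 8.48 in control and 6.99, 7.02, 7.61 and 8.04 in Double skin. It fell by 0.95 on the log2 scale (SE 0.25, adjusted p = 0.0391). In Mek1gof skin Serpinh1 gave -0.83 (adjusted p = 0.178) and in Shp2lof skin the levels were 7.78, 7.56, 8.20 and 8.45, which overlapped the controls.

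Of 13 genes for procollagen processing and crosslinking 6 were measured, and 0 passed in any group against control. In Shp2lof skin the smallest p-values were those of Pcolce2, an enhancer of procollagen C-proteinase, at -0.89 (adjusted p = 0.0736) and Lox, the lysyl oxidase that starts crosslinking, at -0.65 (0.113). Lox gave 9.89, 9.81, 10.02 and 9.93 on control arrays and between 8.61 and 9.94 on Shp2lof arrays, which overlapped. Of 13 fibril-binding proteoglycans and glycoproteins 11 were measured, and 0 passed. In Shp2lof skin Ogn (osteoglycin) gave -0.75 (adjusted p = 0.0752) and Dcn (decorin, which binds type I fibrils) -0.60 (0.0939), and 9 of the 11 estimates were below 0, with a median of -0.35.

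Of 10 collagen receptors 6 were measured. Ddr2, a receptor tyrosine kinase for fibrillar collagen, gave 5.67, 5.51, 5.78 and 5.70 on control arrays, 5.51, 5.46, 5.43 and 5.16 on Shp2lof arrays, 4.62, 4.72, 4.94 and 4.60 on Mek1gof arrays and 5.40, 4.64, 4.52 and 4.75 on Double arrays. It was detected on 4 control, 4 Shp2lof, 0 Mek1gof and 1 Double array. Ddr2 thus entered the test through control and Shp2lof arrays, so its differences from control in Mek1gof and Double skin had to lean lower. The p-values given for them carry that limit. In Mek1gof skin, where it was not above background, it was at least 1.63-fold lower, a bound taken against the lowest detected signal of each array (limma adjusted p = 0.0135). In Double skin, where 3 of 4 arrays were not above background, it was by the same bound at least 1.48-fold lower (adjusted p = 0.0109). None of the other 5 receptors passed against control by limma. Muscle markers moved with the Double group: 7 of 10 measured fell, where 209 of all 10232 genes did. Their mean was 9.65, 9.63, 10.21 and 10.91 on Double arrays against 10.84 to 11.60 in control. In Mek1gof skin 0 of the 10 passed, but all 10 estimates were below 0, with a median of -0.62. The part of that in the values of Serpinh1 and Ddr2 was not tested. Bglap, the bone matrix gene for osteocalcin, rose in Shp2lof (1.96, adjusted p = 0.000208) and in Double skin (2.11, 0.000222). Of its list, 2 of the 4 bone and cartilage markers measured there rose in Double and 1 in Shp2lof skin. Of all 10232 genes, 188 rose in Double and 154 in Shp2lof skin.

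Single arrays detected from 13022 to 13959 probes, with median intensities from 71.33 to 95.88. Slide 1 carried arrays 1 and 2 of every group and slide 2 the others. Each group had its own positions on the slides, so position and group cannot be told apart. Of the markers of the labelled tissue, 10 of 10 keratinocyte and 11 of 11 fibroblast genes were detected on every array.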

How the data were processed

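Dorsal skin RNA was extracted with Trizol, cleaned with RNeasy columns, amplified to biotinylated cRNA and read on Illumina mouse bead arrays, per the labels. The deposited table gives, for 25697 probes, a linear bead intensity and a detection p-value, and GenomeStudio is the tool named in the submitters' processing notes, with no version. Array medians of the deposited intensity values differed, so they were not normalized between arrays. A second deposited intensity table, with the same values within 0.05, served as the unnormalized alternative.

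The neqc function of limma (3.58.1, under R 4.3.3) corrected the background and normalized by quantiles, with an offset of 16, which shrinks differences of dim genes. Its background mean and variance were inferred from the detection p-values. Probes with detection p below 0.05 on at least 4 arrays were kept (14631). Symbols came from the supplied gene table (23978 probes had 1, 1719 none), and all 59 collagen probes matched it by Entrez identifier. The probe with the highest mean stood for a gene. One model of the 4 group means was fitted to the 16 arrays (lmFit, eBayes), with Benjamini-Hochberg adjustment over 10232 genes and a threshold of 0.05. The pipeline was tested on simulated data. The number of arrays limits the precision.

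The members and lists were chosen with earlier results of these data known. Values on every array were to be given for members past the threshold and for the 2 of highest mean level in each class (Col1a1, Col3a1, Col4a1, Col4a2, Col6a1, Col16a1), and from each list up to 5 genes past the threshold or else the 2 of smallest p. Col5a2, Col14a1, Col23a1, Col6a2, Col7a1 and Col17a1 and the markers named singly were picked after their values were seen. Alternatives covered background correction, normalization, filters, probe choice, slide, replicate number, Xist and muscle covariates and each array left out. Figures were made in Python 3.11.15 with matplotlib 3.10.9.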

Additional observations from a re-analysis of the deposited data

Results flagged for a closer look

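One value stood apart from its group among 56 groups of arrays checked, of which chance alone flags about 1 in 20. Col4a1 read 12.05 on Double array 3, against 12.54 to 12.61 on the other 3 Double arrays, a gap of 0.877 of the whole range of the group.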

How the results depend on the processing

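Counts of collagens past the threshold were recomputed under 17 other settings and with each of 16 arrays left out. No difference that passed in either fit changed its sign, but estimates that did not pass could: the fibrillar median in Double against control ran from -0.34 to 0.17, and Col17a1 there was 0.17 on slide 1 alone. For Shp2lof against control the count was 2; it was 1 (Col1a1) on unnormalized signals, with no detection filter and without the 2 arrays high in both Xist and Eif2s3y, and 0 on slide 2 alone, where each group has 2 arrays. It was 3 with slide as a block (Col1a1, Col1a2 and Col3a1), and on slide 1 alone the 2 were Col1a1 and Col3a1. For Mek1gof against control it was 0, and 1 (Col23a1) with array weights, slide as a block or the replicate block. For Double against control it was 0, but 3 on slide 1 alone (Col23a1, Col24a1 and Col28a1, all higher) and 2 on slide 2 alone (Col7a1 and Col17a1, both lower). For Double against Shp2lof it was 0, but 1 without background correction, with array weights and without the 2 arrays (Col1a1 each time), 1 on unnormalized signals (Col7a1, lower), 2 with slide as a block (Col1a1 and Col7a1), 3 on slide 1 (Col1a1, Col3a1 and Col24a1) and 2 on slide 2 (Col7a1 and Col17a1). The cause was not tested. With single arrays left out the counts ran from 1 to 2 for Shp2lof, 0 to 1 for Mek1gof and 0 to 0 for Double against control, 0 to 1 for Double against Shp2lof, 0 to 0 for Double against Mek1gof and 0 to 1 for the interaction. Of the 2772 recomputed differences of 14 members, 2683 kept their call or moved by less than the spread between replicates. Many of these differences could not move. Leaving out an array outside the groups compared keeps a difference as it was, and so do the slide and replicate blocks. The tally therefore says little about how firm the values are. Some values lean towards a pairing of arrays by replicate number, which the main model did not use. Of 24 same-numbered pairs 9 correlated above 0.1 (r from -0.229 to 0.384), and 10 of 16 arrays correlated best with their own number. The median r was 0.0633 for same-numbered pairs and -0.00759 for pairs on the same slide with another number. With the replicate block the adjusted p was 0.00397 for Col1a1 and 0.0271 for Col1a2 in Shp2lof skin, 0.0463 for Col23a1 in Mek1gof skin and 0.0598 for Col1a1 in Double against Shp2lof.

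Over all genes, the median difference on unnormalized signals was -0.118 in Mek1gof (0.0219 as reported) and -0.11 in Double against control (0.0307) and -0.147 in Double against Shp2lof (0.00604), and Double against control then had 251 calls, 12% of them higher, in place of 397, 47.4% higher. Shp2lof against control had 261 calls (59% higher), 149 (74.5% higher) unnormalized and 463 with array weights. Mek1gof against control had 52 calls, and 14 with the muscle covariate. Double against control had 13 with that covariate. Signals near background limit the dim members, and 4 arrays a group limit all.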
